A study of Mus musculus with 6 samples.

Results

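Blood coagulation and its control were followed in mouse liver RNA-seq through the genes F2, F5, F7, F9, F11, F12, Fga, Fgb and Serpinc1. They were taken from the processed tables by gene name, and all 9 of 9 were found among the 21528 genes listed in at least 1 of the 6 libraries. The comparison was between wild-type (WT) mice and mice carrying TRIM24 C52/55A, a knockin in which a pair of cysteines of the TRIM24 RING domain is replaced by alanine so that the protein loses its E3 ubiquitin ligase activity. All animals were C57BL/6 mice by their labels, the knockin having been made on the C57Bl/6J background, and were 5 months old. They had eaten a high fat diet with 60% fat for 3 months, and each of the 3 libraries per genotype came from the liver of a different mouse. The altered codons were carried in the whole body and not in hepatocytes alone, no group on normal chow is part of these libraries, and the labels do not give the sex of the mice. Values are FPKM, fragments scaled to the length of the transcript and to the size of the library, so that levels can be set side by side between genes. Between livers the comparison also depends on scaling. The FPKM summed over all genes was 644619 to 648221 in WT and 673244 to 676791 in the knockin.

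Coagulation proteins are secreted into plasma, mostly by hepatocytes, as inactive precursors that cut and activate one another in sequence. Tissue factor with factor VII opens the extrinsic route, factors XII and XI belong to the contact route, factors IX and X and the cofactor V carry the signal on, and prothrombin (F2) becomes thrombin, which cuts fibrinogen into fibrin. Antithrombin (Serpinc1) blocks thrombin and several of the earlier proteases, and plasmin later dissolves the clot.

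Of the 9 genes, F11 alone passed the test, at 1.76-fold higher in the TRIM24 C52/55A livers, and 8 did not (limma, adjusted p under 0.05 over 12225 genes tested). That is 11.1% of the 9, where 7.72% of all genes tested were called, 1.64% higher and 6.09% lower. F11, F12 and Fga had all 3 knockin livers above all 3 WT livers, 33.3% of the 9, beside 28.9% of all genes without overlap, 6.31% with the knockin higher and 22.5% with the knockin lower. The estimates were above 0 for 6 of the 9 and below 0 for 3, with a median log2 fold change of 0.12, beside a median of -0.075 and 34.5% of estimates above 0 over all genes tested. In bulk liver, fewer cells of a type and less RNA per cell cannot be told apart.

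**Figure D1:**
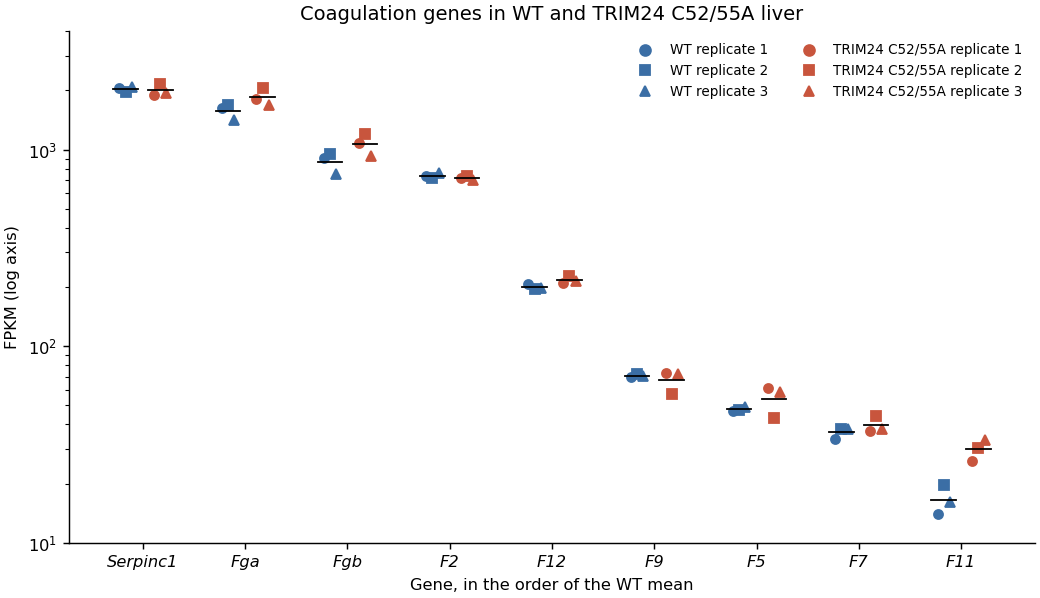
FPKM on a log axis for the 9 genes in each of the 6 livers, ordered by the WT mean, with WT in blue, TRIM24 C52/55A in red, a symbol for each replicate number and black bars for the group means. F11, the lowest of the 9 in both genotypes, shows the widest gap between the groups, and the red squares of F5 and F9 sit below their neighbours.

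The libraries listed between 17709 and 17984 genes, and no pair was identical. Spearman's rho between libraries was 0.976 to 0.988 within a genotype and 0.969 to 0.976 between genotypes. Over all genes tested, 200 were called higher and 744 lower in the knockin, and scaling by median of ratios turned this split into 249 and 411, quantiles into 255 and 378, and equal totals (TPM) into 193 and 1353. Read depth is unknown, since FPKM does not carry it. Trim24 itself had 5.54, 4.85 and 5.96 FPKM in WT and 6.15, 4.31 and 8.46 FPKM in TRIM24 C52/55A livers. Because the knockin changes codons, which FPKM does not show, this level does not check the labels. Hepatocyte markers were abundant in every liver, with a summed level of 22232 to 23049 FPKM in WT and 22148 to 24463 FPKM in the knockin. TRIM24 C52/55A replicate 2 held the adipocyte genes Adipoq, Plin1 and Lep at 4.55, 3.32 and 3.98 FPKM, where the other 5 livers had at most 0.127 FPKM of any of them. Of these 3, each passed the filter on low levels only through this liver. Among the other genes of the adipocyte list, Cidec and Pparg were called, both lower in the knockin, Pparg in 15 and Cidec in 8 of 15 other settings. WT livers held Cidec at 9.94 to 25.2 FPKM and Pparg at 5.55 to 9.42 FPKM, with at most 0.127 FPKM of Adipoq, Plin1 or Lep. Their fall is thus not read as a change in fat cells. Fabp4, Retn and Lipe were also highest in TRIM24 C52/55A replicate 2, Fabp4 at 45.5 FPKM against 6.55 to 16.9 FPKM in the other livers. Cfd, Cidec and Pparg were not highest there, and Car3 was lowest there, at 1436 FPKM against 1885 to 2259 FPKM. Summed over the whole adipocyte list, which is mostly Car3, this liver was the lowest, at 1514 FPKM against 1929 to 2305 FPKM in WT and 1961 and 2152 FPKM in the other knockin livers. That sum follows Car3 and not Adipoq, Plin1 or Lep. This liver was the highest of the 6 for F7, F12, Fga, Fgb and Serpinc1 and the lowest for F5 and F9, and F5, F7, F9, Fga and Serpinc1, whose estimates moved by over 1.5 times or turned in sign without it, are also given without it.

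By level, the 9 genes covered a wide range. In WT livers the order was Serpinc1, Fga, Fgb, F2, F12, F9, F5, F7 and F11, from 2028 ± 54.5 FPKM down to 16.6 ± 2.83 FPKM (SD, n = 3), and Fgb and F2 were the only neighbours whose WT ranges overlapped. In TRIM24 C52/55A livers the order of the means was the same, but the ranges of Serpinc1 and Fga, of F9 and F5 and of F5 and F7 overlapped. The 4 most abundant, Serpinc1, Fga, Fgb and F2, made up 92.7% to 93.9% of the summed FPKM of the 9 in every liver. All 9 together held 0.833% to 0.880% of a library's summed FPKM in WT and 0.838% to 0.970% in the knockin, so the groups overlapped.

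F11, the zymogen of factor XI, which activates factor IX, lies on the minus strand at chr8:45241174-45262031 (GRCm38) in 15 exons. The promoter stretch just upstream of its annotated start is shown because F11 is the gene of the 9 that passed the test. It is the reference sequence of RefSeq (GRCm38.p6), chr8:45262032-45262181 on the minus strand, and the capitals mark a match to the forkhead letters TGTTTAC, found on the opposite strand, followed by a match to the C/EBP letters TTGCNNAA, also on the opposite strand.

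F11: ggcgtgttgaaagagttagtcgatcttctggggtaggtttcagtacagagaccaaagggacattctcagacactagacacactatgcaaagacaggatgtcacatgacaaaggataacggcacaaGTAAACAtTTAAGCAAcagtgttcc

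The forkhead letters occur in 3.65% of the 32851 RefSeq mouse promoters searched on both strands, each from 250 bases before to 50 bases after the start, and the C/EBP letters in 10.8%. Among the 9 genes, F11 alone held the forkhead letters and 5 held the C/EBP letters (F9, F11, Fga, Fgb and Serpinc1). These are letter matches in a fixed window, not measured binding.

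F11 was at 14.0, 19.6 and 16.2 FPKM in the WT livers and at 26.0, 30.3 and 33.2 FPKM in the TRIM24 C52/55A livers. Each knockin liver lay above each WT liver. The means were 16.6 ± 2.83 and 29.8 ± 3.63 FPKM (SD, n = 3), which is 0.81 higher on the log2(FPKM + 1) scale, with a standard error of 0.14 and a 95% interval of 0.50 to 1.13 (limma, adjusted p = 0.0130). The exact permutation test over the 6 livers, two-sided, gave p = 0.1, the smallest that 3 against 3 allows. The call held in 13 of 15 other settings, with an adjusted p of 0.0524 when no genes were filtered out for low level and of 0.0554 without WT replicate 3, and the log2 fold change ran from 0.71 to 0.94 over all 15. By FPKM, F11 moved from rank 3179 among all genes in WT to rank 1872 in the knockin, and it stayed the lowest of the 9.

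F12 (chr13:55417958-55426793, GRCm38, minus strand) encodes factor XII, the contact factor that activates factor XI when it meets a negatively charged surface. Its levels were 208, 195 and 197 FPKM in WT and 209, 228 and 214 FPKM in the knockin. The ranges just missed each other, and the difference of 0.12 on the log2 scale, with a 95% interval of -0.05 to 0.28, did not pass the test (limma, adjusted p = 0.373). The ratio of F11 to F12 within a liver was 0.0832 ± 0.0165 in WT and 0.137 ± 0.0158 in the knockin (SD, n = 3). The ratio was thus 1.66-fold higher in the knockin, and the groups did not overlap (exact permutation test, two-sided, p = 0.1, and 0.6 after Benjamini-Hochberg adjustment over the 6 ratios examined).

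The other contact system genes listed did not pass. Klkb1, plasma prekallikrein, which is the partner that factor XII activates, had 45.8, 51.2 and 50.5 FPKM in WT and 58.8, 54.3 and 53.5 FPKM in the knockin. The groups did not overlap, and the log2 difference of 0.17 had an adjusted p of 0.239 (limma). Kng1, kininogen, the cofactor that carries prekallikrein and factor XI, differed by 0.04 on the log2 scale (limma, adjusted p = 0.825). The remaining 3 genes of the list had estimates below 0, at -0.20 for Kng2, another kininogen gene, -0.19 for Habp2, a hyaluronan-binding protease, and -0.04 for Hrg, histidine-rich glycoprotein. All knockin livers were below all WT livers for Habp2, which passed with TPM scaling only (limma, adjusted p = 0.0420). With median-of-ratios and quantile scaling its estimate shrank to -0.09 and -0.03, and that of Kng2 to -0.10 and -0.04.

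Klkb1 and F11 are related genes that lie next to each other, 4.7 kb apart and on the same strand. The next gene beyond Klkb1, after 10.1 kb, is Cyp4v3, a fatty acid hydroxylase, and it was examined only after its values had been seen. Cyp4v3 was at 108, 112 and 116 FPKM in WT and at 449, 349 and 415 FPKM in TRIM24 C52/55A livers, 3.57-fold higher (log2 fold change 1.84, SE 0.10, limma, adjusted p = 8.52e-05). Along this stretch of 3 genes, the log2 fold changes were therefore 0.81 for F11, 0.17 for Klkb1 and 1.84 for Cyp4v3. The interval that the tables give for Klkb1 spans 66.5 kb and is shared with Cyp4v3, where the annotated gene spans 28.2 kb, and how fragments were divided there is not given in the sources used here. F11 has an interval of its own that matches the annotation.

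Fibrinogen is built from the products of Fga, Fgb and Fgg, which lie in a cluster on chromosome 3 and which the liver makes together. Fgg, the gamma chain, is not among the 9 genes but is described with its partners. The promoter stretches of the 3 genes are shown side by side because the levels of the chains varied together from liver to liver. They are RefSeq reference sequence (GRCm38.p6), chr3:83025926-83026075 on the plus strand for Fga, chr3:83049864-83050013 on the minus strand for Fgb and chr3:83007574-83007723 on the plus strand for Fgg. Capitals mark matches to TTGCNNAA (C/EBP) on either strand in Fga and Fgb and, in Fgb, a second match, ATTAAC, which is GTTAAT (HNF1) on the opposite strand.

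Fga: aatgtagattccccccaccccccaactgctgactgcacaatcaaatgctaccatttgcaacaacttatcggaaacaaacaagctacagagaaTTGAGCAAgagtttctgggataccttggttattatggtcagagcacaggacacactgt
Fgb: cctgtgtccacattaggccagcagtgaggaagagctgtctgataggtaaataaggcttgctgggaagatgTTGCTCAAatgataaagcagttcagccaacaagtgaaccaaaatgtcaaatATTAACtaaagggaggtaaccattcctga
Fgg: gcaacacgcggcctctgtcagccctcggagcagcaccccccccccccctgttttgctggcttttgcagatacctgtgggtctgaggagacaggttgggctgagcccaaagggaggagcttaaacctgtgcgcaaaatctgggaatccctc

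The HNF1 letters occur in 7.1% of RefSeq promoters and were found in F2, Fga and Fgb. The match in Fga lies 43 to 38 bases before the RefSeq start, downstream of the stretch shown. None of the 4 letter patterns searched was in the Fgg window, which says only that these letters are not there.

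Fga, the alpha chain (chr3:83026076-83033627, GRCm38, plus strand), was at 1630, 1685 and 1420 FPKM in WT and at 1815, 2067 and 1690 FPKM in the knockin. The groups were barely apart, between 1685.35 in WT replicate 2 and 1689.95 in TRIM24 C52/55A replicate 3. The log2 difference was 0.23 with a 95% interval of -0.01 to 0.48 (limma, adjusted p = 0.233), and leaving out knockin replicate 2 gave 0.15.

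Fgb, the beta chain (chr3:83040141-83049863, GRCm38, minus strand), was at 901, 947 and 752 FPKM in WT and at 1086, 1198 and 924 FPKM in the knockin. The groups overlapped, since TRIM24 C52/55A replicate 3 lay below WT replicate 2. The log2 difference was 0.30 with a 95% interval of 0.02 to 0.59, and it did not pass after adjustment over all genes (limma, adjusted p = 0.188).

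Fgg was at 1649, 1607 and 1387 FPKM in WT and at 1902, 2033 and 1684 FPKM in the knockin, without overlap. Its log2 difference was 0.28 (95% interval 0.03 to 0.52, limma, adjusted p = 0.158). In the tables its interval spans 138.3 kb and is shared with Lrat, where the annotated gene spans 7.3 kb.

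All 3 chains were lowest in replicate 3 of each genotype, and in the knockin all 3 were highest in replicate 2. The ratios between chains were nearly fixed. Fgb over Fga was 0.553, 0.562 and 0.530 in WT and 0.599, 0.579 and 0.547 in the knockin, and the groups overlapped (exact permutation test, two-sided, p = 0.3, and 0.6 adjusted over the 6 ratios). Fgg over Fga was 1.01, 0.953 and 0.977 in WT and 1.05, 0.984 and 0.997 in the knockin (exact permutation test, two-sided, p = 0.4, and 0.6 adjusted over the 6 ratios).

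**Figure D2:**
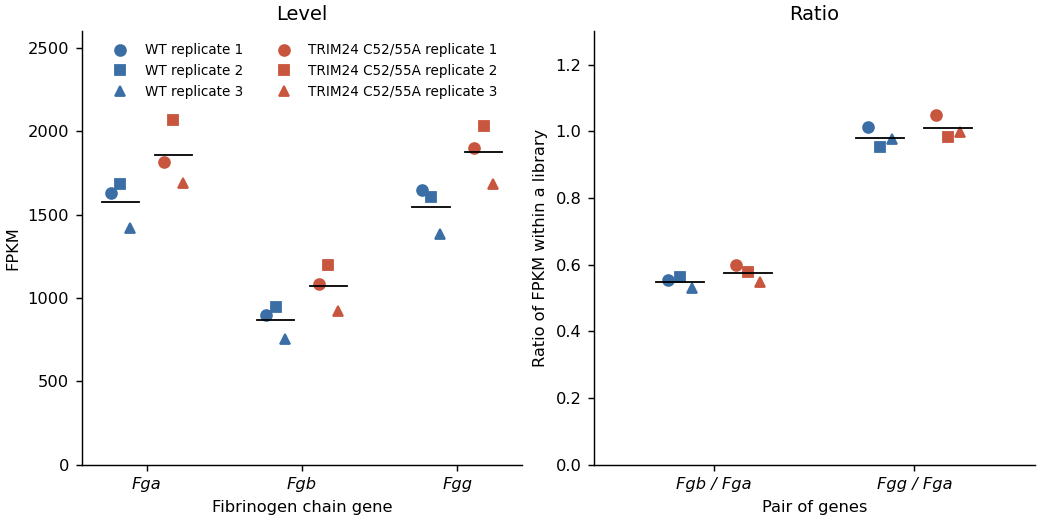
Left, FPKM of the 3 fibrinogen chain genes in each liver; right, the ratios of Fgb and Fgg to Fga within a liver (WT blue, TRIM24 C52/55A red, symbols by replicate number, black bars for group means, both axes from 0). The levels vary between livers of a genotype, with replicate 3 lowest in each, while Fgb over Fga stays between 0.530 and 0.599 and Fgg over Fga between 0.953 and 1.05.

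Fibrinogen is also an acute phase protein, one of the liver products that rise in plasma during inflammation, and other members of that class were set beside it. Of the 15 other acute phase and inflammatory response genes listed, 6 were called lower in the knockin and none higher, 40% of the list beside 7.72% of all genes in either direction and 6.09% in the lower direction. Saa2, a serum amyloid A, fell from 55.4 ± 12.3 to 9.05 ± 1.22 FPKM (SD, n = 3, log2 fold change -2.47, limma, adjusted p = 0.000220). Lcn2, lipocalin 2, which binds bacterial siderophores, fell by 1.95 on the log2 scale (limma, adjusted p = 0.00480). Orm2, an orosomucoid, fell by 1.88 (limma, adjusted p = 0.000132), and Saa1 fell by 1.80 (limma, adjusted p = 0.00104). Haptoglobin (Hp), which binds free haemoglobin and is about as abundant as a fibrinogen chain, fell from 1878 ± 179 to 1202 ± 128 FPKM (log2 fold change -0.64, limma, adjusted p = 0.0136), a call that was lost when no genes were filtered out (adjusted p = 0.0621). Of the 15 estimates 11 were below 0 and 4 above, the highest being Il1r1, the interleukin-1 receptor, at 0.40 without overlap but not called (limma, adjusted p = 0.128), and at 0.25 without knockin replicate 2. The estimates of the 3 fibrinogen chains were above 0, like those of these 4 genes, and the difference between fibrinogen and the list was not tested. Kupffer cell and macrophage genes, measured in the same livers, had 0 of 10 called and all 10 estimates below 0, with 1 of 10 at an unadjusted p under 0.05 (limma) and a summed level of 256 to 322 FPKM in WT and 210 to 306 FPKM in the knockin, and their part in these values was not tested.

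**Figure D3:**
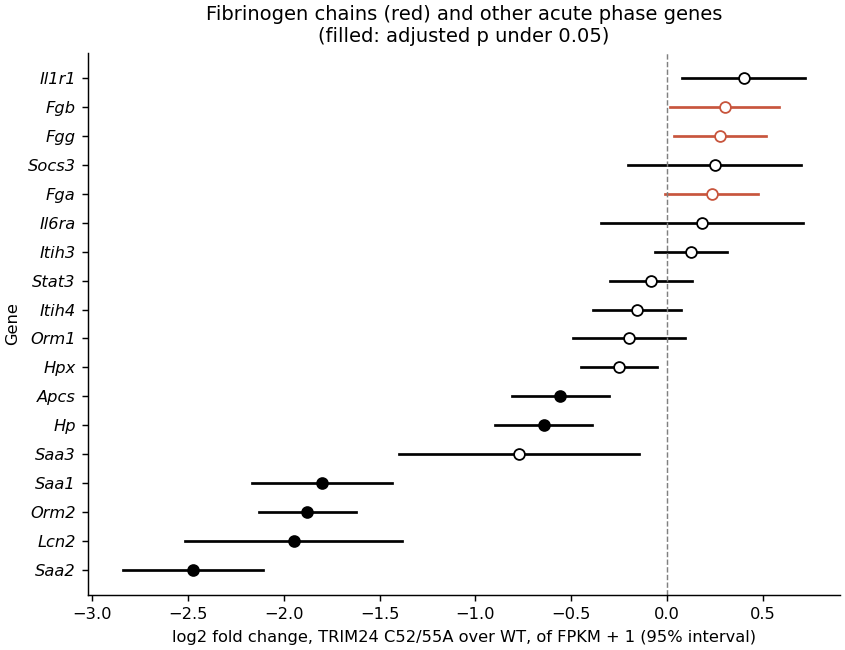
log2 fold change of FPKM + 1, TRIM24 C52/55A over WT, with its 95% interval for the 3 fibrinogen chains (red) and 15 other acute phase and inflammatory response genes (black), in order of the estimate. Filled points passed at an adjusted p under 0.05: they are 6 genes, all lower in the knockin, and none is a fibrinogen chain.

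F2, F7 and F9 are vitamin K-dependent zymogens, whose glutamate residues are carboxylated in the endoplasmic reticulum so that the secreted protein binds calcium and membranes. F2, prothrombin (chr2:91625320-91636414, GRCm38, minus strand), had 731, 713 and 757 FPKM in WT and 713, 732 and 698 FPKM in the knockin. The groups overlapped, with knockin replicates 1 and 3 just below all WT livers, and the 95% interval of the difference ran from -12.9% to 8.96% (log2 difference -0.04, limma, adjusted p = 0.799). Its sign turned under median-of-ratios (0.06) and quantile (0.05) scaling.

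F7 (chr8:13026034-13035809, GRCm38, plus strand), the zymogen that tissue factor binds to start coagulation, had 33.9, 37.8 and 38.0 FPKM in WT and 37.1, 43.9 and 37.9 FPKM in the knockin. The groups overlapped, and the log2 difference was 0.11 with an interval of -0.10 to 0.32 (limma, adjusted p = 0.526). Leaving out TRIM24 C52/55A replicate 2 gave 0.04 and leaving out WT replicate 1 gave 0.06. F9 (chrX:59999464-60030759, GRCm38, plus strand), the gene of the Christmas factor, whose loss causes haemophilia B, had 69.6, 72.3 and 70.1 FPKM in WT and 73.3, 57.3 and 72.1 FPKM in the knockin. Every liver except TRIM24 C52/55A replicate 2 lay within 69.6 to 73.3 FPKM, and that liver lay below them. The log2 difference was -0.07 (95% interval -0.31 to 0.16, limma, adjusted p = 0.731), and leaving that liver out gave 0.04.

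F7 and F9 were the only genes of the 9 with the HNF4 letters AAAGGTCA in their promoter windows, letters found in 1.51% of RefSeq promoters. A stretch of 30 bases around each is shown (RefSeq, GRCm38.p6, plus strand), at chr8:13025989-13026018 for F7, where the capitals mark the match on the opposite strand, and at chrX:59999439-59999468 for F9, where the capitals mark a C/EBP match (TTGCNNAA) and then the HNF4 match.

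F7: cccctccccccTGACCTTTgccctcccggc
F9: cTTGCACAAtctcctaacAAAGGTCAtgaa

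Hnf4a, the hepatocyte nuclear receptor that reads such letters, was at 148 ± 2.63 FPKM in WT and 152 ± 5.57 FPKM in the knockin (SD, n = 3, log2 difference 0.04, limma, adjusted p = 0.798). Of 12 liver transcription factors listed, 1 was called, 8.33% of the list, close to the 7.72% of all genes called. It was Cebpb, a C/EBP family member, which fell from 22.2 ± 4.76 to 11.3 ± 3.44 FPKM (log2 fold change -0.94, limma, adjusted p = 0.0428), and the call was lost in 10 of 15 other settings.

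F7 stands next to F10 and Proz on chromosome 8, 1.5 kb and 4.2 kb from gene to gene. F10, factor X, the zymogen on which both routes meet, had 172, 185 and 173 FPKM in WT and 168, 170 and 176 FPKM in the knockin (log2 difference -0.04, limma, adjusted p = 0.768). Proz, protein Z, a cofactor in the inhibition of factor Xa, had 89.3, 92.1 and 93.9 FPKM in WT and 109, 98.9 and 111 FPKM in the knockin, without overlap (log2 difference 0.21, limma, adjusted p = 0.138). Of the 3 neighbours, Proz was the one whose groups did not overlap, and none passed, except Proz with quantile scaling (limma, adjusted p = 0.0291).

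Among the other genes of the vitamin K system, 1 of 8 was called, 12.5% beside 7.72% of all genes. Gas6, a ligand of the TAM receptors that shares the carboxylated domain but has no part in the protease cascade, fell from 27.3 ± 4.65 to 15.3 ± 2.72 FPKM (SD, n = 3, log2 fold change -0.79, limma, adjusted p = 0.0219), and 10 of 15 other settings held the call. Proc, the anticoagulant protein C, differed by 0.09 on the log2 scale (0.02 with knockin replicate 2 omitted), and Pros1, its cofactor protein S, by -0.10 (limma, adjusted p = 0.571 and 0.561). Ggcx, the carboxylase, differed by 0.21 (limma, adjusted p = 0.214), and Vkorc1, which recycles vitamin K, by 0.02 (limma, adjusted p = 0.929). Vkorc1l1, on the same list, differed by -0.28, with overlap (limma, adjusted p = 0.186). Of the 8 genes, 3 had an unadjusted p under 0.05 (limma).

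F5, the cofactor of factor Xa, lies at chr1:164151838-164220277 (GRCm38) and has the longest transcript of the 9, with 7430 spliced bases in 25 exons. It was at 46.6, 47.3 and 49.0 FPKM in WT and at 61.4, 42.9 and 58.2 FPKM in the knockin. Knockin replicates 1 and 3 lay above all WT livers and replicate 2 lay below them. The log2 difference was 0.17 with an interval of -0.13 to 0.46 (limma, adjusted p = 0.503), and leaving out TRIM24 C52/55A replicate 2 gave 0.32, which passed (limma, adjusted p = 0.0352). Leaving out knockin replicate 1 or 3 instead gave 0.07 or 0.11, and neither passed. The coefficient of variation of F5 was 2.63% in WT and 18.3% in the knockin, the largest of the 9 in the knockin.

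Over all genes, levels also moved with transcript length, between the knockin livers, in WT replicate 3 and between the genotypes. Among genes of at least 10 FPKM, the median deviation of replicate 2 from the other 2 knockin livers was 0.12 on the log2 scale below 1 spliced kb, 0.03 at 2 to 4 kb, -0.03 at 4 to 8 kb and -0.08 at 8 kb and over, and that of replicate 1 ran the other way, from -0.08 below 1 kb to 0.06 at 8 kb and over. WT replicate 3 deviated from the other WT livers by 0.08 below 1 kb and by 0.01 at 8 kb and over. The median log2 fold change of the knockin over WT ran from -0.17 below 1 kb to -0.05 at 8 kb and over. F5 falls in the range of 4 to 8 kb and F9 in that of 2 to 4 kb, and the deviations of these genes in knockin replicate 2 were -0.47 and -0.34. Of the 9 genes, F5 (7430 bases) and F9 (2734 bases) were lowest there, yet Serpinc1 (4970 bases) and Fgb (3810 bases) were highest there, and the part of length in the F5 and F9 values was not tested. The tables also give F5 an interval of 105.0 kb, shared with Selp and a pair of predicted genes, where the annotated gene spans 68.4 kb. Selp, P-selectin, was at 0.598 ± 0.0775 FPKM in WT and 0.702 ± 0.0550 FPKM in the knockin (SD, n = 3).

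F8, cofactor of factor IXa and made in liver endothelium, was low, at 2.58 ± 0.147 FPKM in WT and 2.25 ± 0.705 FPKM in the knockin (SD, n = 3, log2 difference -0.16, limma, adjusted p = 0.587), and the difference ran from -0.33 without knockin replicate 1 to -0.06 without knockin replicate 2. On the list of cofactors and fibrin formation, which holds Fgg and F8, 9 genes were tested and 0 were called by limma, with 3 at an unadjusted p under 0.05. Mcfd2, on that list, was at -0.29 without overlap and passed with TPM scaling only (limma, adjusted p = 0.0454). Of 10 endothelial genes, 1 was called, and it was lower in the knockin, which is 10% beside 7.72% of all genes, with a summed level of 144 to 151 FPKM in WT and 126 to 142 FPKM in the knockin. F13a1, which crosslinks fibrin and comes mainly from platelets and macrophages, was at or below 0.204 FPKM in every liver and was not tested. Platelet and megakaryocyte markers summed to 10.9 to 11.5 FPKM in WT and 6.08 to 9.13 FPKM in the knockin, with 0 of 3 tested genes called and 1 of 3 at an unadjusted p under 0.05 (limma). Most of each sum was Clec1b, a platelet receptor gene, at 6.54, 9.07 and 9.21 FPKM in WT and 4.38, 5.96 and 6.11 FPKM in the knockin, and the groups overlapped for the other 2 genes tested, Itga2b and Pf4. Clec1b passed with TPM scaling and with a replicate block (limma, adjusted p = 0.0490 and 0.0446). Of 5 erythroid genes tested, 0 were called and 4 had an unadjusted p under 0.05 (limma). Among those 4, Alas2 was higher in the knockin, by 0.48 on the log2 scale without overlap, and passed in 2 of 15 other settings. The other erythroid estimates were below 0, and the median log2 fold change was -0.82. The summed level was 1800, 673 and 939 FPKM in WT and 631, 522 and 729.5 FPKM in the knockin. The part of blood content in these values was not tested.

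**Figure D4:**
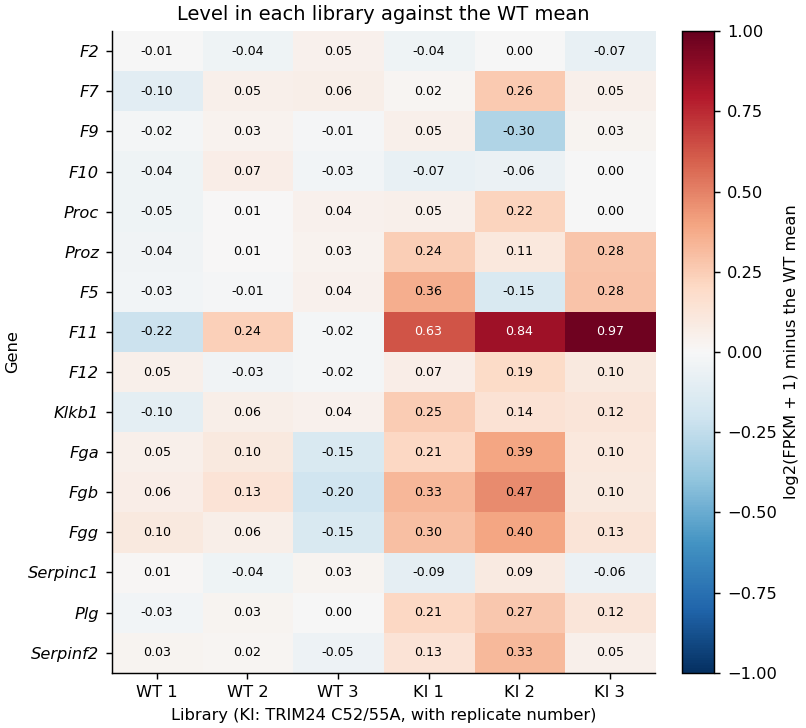
log2(FPKM + 1) of 16 coagulation genes in each liver minus the WT mean of that gene, with WT replicates in the first 3 columns and TRIM24 C52/55A (KI) replicates in the last 3, red for above and blue for below. F11 is 0.63, 0.84 and 0.97 above the WT mean in the knockin livers, the fibrinogen chains share a pattern, and in KI 2 F5 and F9 are at -0.15 and -0.30.

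Serpinc1, antithrombin (chr1:160978585-161005863, GRCm38, plus strand), was the most abundant of the 9. The tables give it an interval of 60.0 kb, shared with Gas5, Zbtb37 and 3 predicted genes, where the annotated gene spans 27.3 kb. Its levels were 2047, 1967 and 2071 FPKM in WT and 1905, 2155 and 1947 FPKM in the knockin. Knockin replicates 1 and 3 lay below all WT livers and replicate 2 lay above them. The 95% interval of the difference ran from -13.6% to 12.5% (log2 difference -0.02, limma, adjusted p = 0.917), and the sign turned with median-of-ratios scaling (0.08) and without TRIM24 C52/55A replicate 1 (0.01), while leaving out replicate 2 gave -0.07. Set against the zymogen of its main target within each liver, Serpinc1 over F2 was 2.77 ± 0.0332 in WT and 2.80 ± 0.136 in the knockin (SD, n = 3, exact permutation test, two-sided, p = 0.8, and 0.96 adjusted over the 6 ratios).

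Of the other inhibitors, 2 of the 7 tested passed, both higher in the knockin, which is 28.6% beside 7.72% of all genes in either direction and 1.64% in the higher direction. Serping1, the C1 inhibitor, which blocks kallikrein, factor XIIa and factor XIa as well as complement C1, was at 400, 394 and 385 FPKM in WT and 514, 535 and 493 FPKM in the knockin. The groups lay well apart (log2 fold change 0.39, SE 0.07, limma, adjusted p = 0.0177). Serpine2, protease nexin-1, an inhibitor of thrombin and urokinase at cell surfaces, rose from 5.35 ± 1.74 to 11.2 ± 1.73 FPKM (SD, n = 3, log2 fold change 0.96, limma, adjusted p = 0.0220). Each was called in 11 of 15 other settings.

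In fibrinolysis, 1 of 9 tested genes was called, 11.1% beside 7.72% of all genes. Of the 9 estimates 6 were below 0, with a median of -0.42 on the log2 scale, and 5 genes had an unadjusted p under 0.05 (limma). Over all genes tested, 34.5% of estimates were above 0 and 2883 of 12225 had an unadjusted p under 0.05. In the same livers, 4 cholangiocyte genes tested had 0 calls and 3 at an unadjusted p under 0.05 (limma). Of those 3, Sox9 was higher in the knockin, by 0.54 on the log2 scale, and the others were lower. The list had a summed level of 28.5 to 53.8 FPKM in WT and 21.8 to 34.0 FPKM in the knockin, most of it Spp1. Of 10 stellate cell genes 0 were called and 5 had an unadjusted p under 0.05 (limma). Of those 5, Lrat was higher in the knockin, by 0.31 on the log2 scale without overlap, and the others were lower. Of the 10 estimates 4 were above 0 and 6 below, with a median of -0.20. The summed level was 138 to 146 FPKM in WT and 133 to 169 FPKM in the knockin, most of it Ecm1. The part of these cells in the fibrinolysis values was not tested. Anxa2, annexin A2, which holds plasminogen and its activator on cell surfaces, fell from 24.9 ± 4.09 to 10.6 ± 2.98 FPKM (SD, n = 3, log2 fold change -1.18, limma, adjusted p = 0.0124), and 12 of 15 other settings held the call. Plg, plasminogen, was at 595, 618 and 605 FPKM in WT and 701, 730 and 660 FPKM in the knockin, without overlap. Its log2 difference of 0.20 did not pass (limma, adjusted p = 0.144) except with median-of-ratios scaling (adjusted p = 0.0495). Serpinf2, the plasmin inhibitor, differed by 0.17 (limma, adjusted p = 0.300) and by 0.09 without knockin replicate 2. Besides Anxa2, the genes with all knockin livers below all WT livers were Plgrkt, a plasminogen receptor, at -0.56, and Fgl1, a fibrinogen-like hepatokine, at -0.42, named after their values were seen, and neither passed (limma, adjusted p = 0.121 and 0.0983).

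Over the whole list of 43 other coagulation and fibrinolysis genes, 38 were tested and 4 were called, 2 in each direction. That is 10.5% beside 7.72% of all genes, and their median log2 fold change was -0.071 beside -0.075. Leaving out WT replicate 1 or WT replicate 3 left 0 calls by limma, with 10 and 9 genes at an unadjusted p under 0.05 (15 with all livers), and leaving out TRIM24 C52/55A replicate 1 gave 2, Anxa2, called with all livers too, and Fgl1, which was not.

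**Figure D5:**
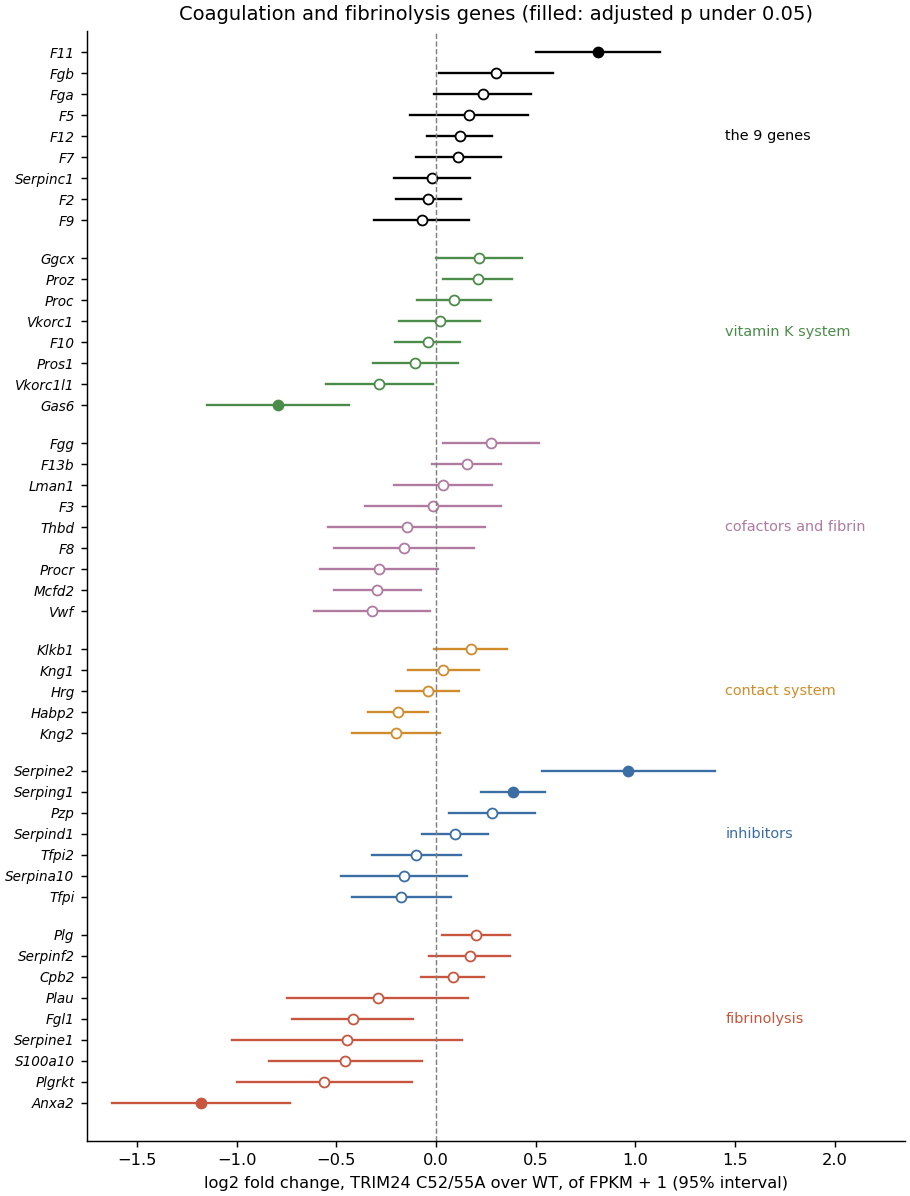
log2 fold change of FPKM + 1, TRIM24 C52/55A over WT, with its 95% interval for the 9 genes and the 38 other tested genes of the pathway, grouped by role. Filled points passed at an adjusted p under 0.05, namely F11, Gas6, Serpine2, Serping1 and Anxa2, and most other intervals include 0.

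The levels of the 9 genes, each scaled to its own mean and SD and averaged, were highest in TRIM24 C52/55A replicate 2 (0.72) and below 0 in the 3 WT livers (-0.39, -0.33 and -0.33). F12, Fga, Fgb, F7 and F11 followed this average, which is made from the 9 genes themselves, so their agreement is partly built in. Serpinc1, F5 and F2 did not follow it, with Pearson's coefficients of 0.25, 0.01 and -0.20, and F9 ran against it (-0.69). As a description over 6 livers with no test, the genes whose levels followed the average most closely were Helz2, an RNA helicase (likeness 0.993, as Pearson's coefficient), H13, a signal peptide peptidase (0.987), and the predicted gene Gm45043 (0.987).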

How the data were processed

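Liver RNA of 6 mice was sequenced, 3 per genotype, with 1 library per mouse. The authors deposited 1 table of FPKM per library, listing genes above 0. A gene that was not listed was set to 0. The submitters' processing notes name bcl2fastq, Salmon 0.14.0, DESeq2 1.30.0 and GRCm38 without their roles, and the program that gave the FPKM values is not given in the sources used here. FPKM carries no read depth, so no counting error could be given.

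Genotypes came from the sample labels. Genes whose mean reached 0.5 FPKM were kept. Their values were tested as log2(FPKM + 1), which understates the change of low genes. The test was that of limma 3.58.1, run under R 4.3.3 (empirical Bayes with trend, WT against TRIM24 C52/55A, Benjamini-Hochberg adjustment over all 12225 genes tested). Calls used an adjusted p under 0.05. Single ratios were compared with the exact permutation test, two-sided. The 15 alternatives were a pseudocount of 0.1, no filter, a minimum of 1 FPKM, scaling to equal totals (TPM), by median of ratios or by quantiles, no trend, a robust fit, a replicate block, and each library left out.

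The 9 genes and the gene lists were chosen with earlier results of these data known. Besides the 9, the text names the other pathway genes that were called and 11 set partners, called genes among the liver transcription factors and up to 5 among the acute phase genes, up to 3 abundant genes per cell type list, and the 3 genes most like the average profile. Named outside this rule were Trim24, as the targeted gene, and, after their values had been seen, Proz, F13a1, Plgrkt, Fgl1, Habp2, Kng2, Hrg, Il1r1, Pparg, Hnf4a, Cyp4v3, Selp, Adipoq, Plin1 and Lep. So were Alas2, Cfd, Lipe, Lrat, Mcfd2, Retn and Vkorc1l1. Gene positions are from GENCODE M21 and promoters from RefSeq, both GRCm38. Alb and Tf, on the hepatocyte list, were not analysed here.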

Additional observations from a re-analysis of the deposited data

How the results depend on the processing

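Of 135 values (9 genes under 15 alternatives), 125 kept their sign and their side of the threshold. Over all genes, 944 were called, against 347 without a filter, 1546 with TPM scaling, 578 with a replicate block and 296 to 1272 when a library was left out. Among the 9 genes the 1 call became 0 without a filter and ran from 0 (without WT replicate 3) to 2 (without TRIM24 C52/55A replicate 2, F5 and F11), and in both settings with 0 calls limma gave 1 of 9 an unadjusted p under 0.05. Among the other pathway genes the 4 calls became 1 without a filter and 6 with TPM scaling, and ran from 0 to 5 when a library was left out. The replicate numbers did not pair the livers (correlations of the deviations of -0.12, -0.099 and 0.0027), and the replicate block changed no call among the 9. Signs turned, for differences that passed in no setting, with median-of-ratios scaling for F2 (0.064), F9 (0.029), Serpinc1 (0.082), F10 (0.059) and Hrg (0.061), with quantile scaling for F2 (0.050), F9 (0.075), F10 (0.10), Hrg (0.079) and Pros1 (0.016), and with TPM for Kng1 (-0.027), Vkorc1 (-0.045) and Hnf4a (-0.026). Leaving out a library gave -0.058 to -0.015 for F2, -0.14 to 0.041 for F9, -0.074 to 0.014 for Serpinc1, -0.0012 to 0.074 for Kng1, -0.048 to 0.080 for Vkorc1 and -0.061 to 0.35 for Trim24. For Pros1 it gave -0.16 to -0.050, for F10 -0.064 to -0.0082 and for Hrg -0.057 to -0.019. The causes were not tested. The median shift over all genes was at most 0.085 on the log2 scale under any scaling. With 3 livers per genotype, the narrowest 95% interval among the 9 genes, that of F2, ran from -12.9% to 8.96%.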
